A study of Mus musculus with 16 samples.

Results

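The genes described here run the cholesterol and fatty acid economy of the cell: 18 genes of sterol synthesis and its SREBP2 control, 7 genes of LXR-driven efflux and sterol storage, 5 genes of SREBP1 lipogenesis, and Ch25h, the enzyme that hydroxylates cholesterol to an oxysterol, which was counted outside the 3 subgroups. They were chosen by gene symbol, make up 31 of the 24421 symbols in the count table, and all 31 passed the filter on low counts that left 13649 genes for testing. RNA of macrophages sorted as F4/80+ from mouse muscle was sequenced in 16 libraries, 4 in each of 4 groups: WT and KO from normal muscle, and WT and KO from CTX-injected muscle. The study set macrophages lacking Glud1 (glutamate dehydrogenase) beside WT macrophages, in undamaged muscle and when damage peaked. CTX is named only by that abbreviation, and the labels name neither the promoter or Cre behind the deletion, nor the age of the mice, nor whether animals were pooled or each library came from its own mouse. P-values therefore speak only to library-to-library spread, part of which can be technical.

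Library totals ran from 17051892 to 23097420 counts. Macrophage markers (Adgre1, Csf1r, Cd68 and 4 more) were present in every library, summing to 4831 to 6965 CPM in normal muscle and 7122 to 8704 CPM after injury, where CPM is the usual count scaled to library size, here with TMM factors. The 7 markers did not move together: 4 were higher on average after injury in each genotype and the rest lower. Itgam read 543 to 737 CPM in the normal and 2278 to 3194 CPM in the CTX libraries. Csf1r read 2562 to 3720 and 1572 to 1815 CPM. Gene-level counts of Glud1 overlapped between the libraries labelled WT and those labelled KO in both tissues, and as the labels do not say which exons were removed, they check the genotype labels neither way. The normal WT libraries 5 and 6 and the normal KO library 5 carried Xist reads and almost no Y-linked reads. All CTX libraries were the reverse, so injury is partly confounded with sex. In normal muscle the sexes are also unevenly split between WT and KO. Sums of several other marker lists were lower after injury without overlap. The 10 immediate early and heat shock genes respond to cell isolation. Their sums fell from 20288 to 25920 CPM in the normal libraries to 4297 to 5848 CPM. The 5 T and NK cell genes summed to 22.97 to 46.4 CPM before and 0.93 to 5.61 CPM after. The 6 fibroblast genes summed to 185 to 888 and 54.3 to 99.9 CPM. Sums of the 4 neutrophil genes varied widely and overlapped. In WT they ranged from 152 to 2718 CPM before injury and from 82.9 to 250.3 CPM after it. The KO range was 128 to 3998 CPM before and 140.5 to 688 CPM after. By the injury test described below, 3 of these 4 genes were called lower in WT and 0 in KO. The part of these shifts in the injury results was not tested, and in bulk RNA fewer cells of a type and less RNA per cell cannot be told apart.

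As background, cells sense sterol in the endoplasmic reticulum. When sterol is scarce, Scap escorts SREBP2 (the product of Srebf2) to the Golgi, where it is cut and released to switch on the genes of sterol synthesis, while Insig1 holds the complex back when sterol is plentiful. Oxysterols and desmosterol activate the LXR receptors (Nr1h3 and Nr1h2), which switch on the exporters Abca1 and Abcg1, the ubiquitin ligase Mylip, and Srebf1, whose product drives fatty acid synthesis. Macrophages that engulf dead cells take in cholesterol that they must export or store as esters, and the esterifying enzyme Soat1 and the ester hydrolase Nceh1 act at that store.

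Promoter windows are shown for 5 members because they hold the matches described next. Among the members with a window, the 3 with the LXR-type repeat were picked. Hmgcs1 was picked as the only such member with the sterol element, and Lss as a sterol gene with CCAAT alone of these 3 motifs. The sequences are RefSeq's (assembly GRCm38.p6), the 250 bases before a listed start, 5′ to 3′ on the gene's strand, with matches in capitals to the letters CCAAT, to the sterol element TCACNCCAC and to the LXR-type repeat called DR4 (GGTNA, any 5 bases, GGTNA), each searched on both strands. Fasn holds an overlap of a pair of CCAAT matches, on opposite strands. The windows are Abca1 on the minus strand, chr4:53159896-53160145; Srebf1 on the minus strand, chr11:60210472-60210721, which is 1 of 3 listed starts; Fasn on the minus strand, chr11:120824548-120824797; Hmgcs1 on the plus strand, chr13:119690101-119690350; and Lss on the plus strand, chr10:76531355-76531604.
Abca1: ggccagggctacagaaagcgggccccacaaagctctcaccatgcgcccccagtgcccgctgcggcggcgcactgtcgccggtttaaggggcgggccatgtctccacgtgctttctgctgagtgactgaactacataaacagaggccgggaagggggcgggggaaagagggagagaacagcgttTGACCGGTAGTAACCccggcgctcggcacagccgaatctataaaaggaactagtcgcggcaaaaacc
Srebf1: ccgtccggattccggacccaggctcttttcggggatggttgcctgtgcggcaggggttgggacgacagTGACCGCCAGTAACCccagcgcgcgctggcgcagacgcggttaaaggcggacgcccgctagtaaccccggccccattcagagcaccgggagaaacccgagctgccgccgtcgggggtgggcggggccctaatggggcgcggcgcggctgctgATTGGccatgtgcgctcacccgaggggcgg
Fasn: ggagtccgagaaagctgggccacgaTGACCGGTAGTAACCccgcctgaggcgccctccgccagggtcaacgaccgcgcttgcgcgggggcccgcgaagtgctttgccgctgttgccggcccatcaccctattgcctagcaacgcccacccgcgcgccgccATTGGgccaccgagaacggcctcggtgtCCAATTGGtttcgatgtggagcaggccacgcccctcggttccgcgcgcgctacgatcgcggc
Hmgcs1: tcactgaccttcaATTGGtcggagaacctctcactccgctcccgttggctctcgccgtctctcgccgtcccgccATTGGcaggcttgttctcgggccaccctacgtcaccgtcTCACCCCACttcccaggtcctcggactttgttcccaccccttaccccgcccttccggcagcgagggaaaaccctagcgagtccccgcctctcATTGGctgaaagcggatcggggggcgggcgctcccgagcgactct
Lss: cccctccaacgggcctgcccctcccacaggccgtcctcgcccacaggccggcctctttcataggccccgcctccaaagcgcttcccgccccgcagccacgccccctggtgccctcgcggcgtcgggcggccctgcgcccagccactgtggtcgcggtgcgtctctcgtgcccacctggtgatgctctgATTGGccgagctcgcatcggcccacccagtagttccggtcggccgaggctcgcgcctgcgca

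A RefSeq window was matched for 14 of the 18 sterol synthesis genes, 6 of the 7 LXR genes, 3 of the 5 lipogenesis genes and Ch25h. Sqle, Fdps, Fdft1, Stard4, Abcg1, Scd1 and Scd2 had no window, so they were not searched for any motif. Counted by window, CCAAT was found in 13 of the 18 windows of the sterol synthesis genes, 3 of the 7 of the LXR genes and 3 of the 5 of the lipogenesis genes, beside 37.4% of the 32851 windows of all genes, and no difference between the subgroups was tested; the searched windows are 300 bases long and reach 50 bases past the start. The sterol element was found in Hmgcs1 alone among the members with a window and in 1.24% of all windows. DR4 was found in Abca1, Srebf1 and Fasn and in 0.718% of all windows, and the 15 letters of the match, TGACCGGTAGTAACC as printed, are the same in Abca1 and Fasn and read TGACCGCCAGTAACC in Srebf1. These 3 genes did not move together after injury: as given below, Abca1 and Srebf1 rose and Fasn fell in WT, although the direction of Srebf1 turned with library totals. A match is a description of letters, not a site shown to be bound.

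Injury was compared first in WT, CTX-injected against normal muscle, with edgeR's quasi-likelihood test and Benjamini-Hochberg adjustment over all 13649 genes. RNA of Abca1, Soat1 and Nceh1 rose, that of Abcg1 and Mylip fell, the sterol synthesis genes split, and the desaturases and Fasn fell. At an adjusted p under 0.05, 8 of the 31 members rose, 11 fell and 12 did not pass. Over all genes tested 33.3% were called higher, 39.4% lower and 72.7% in either direction, so being called is common in this contrast and no count of members stands out by itself. The groups did not overlap for 19 of the 31 members, beside 65.5% of all genes.

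**Figure D1:**
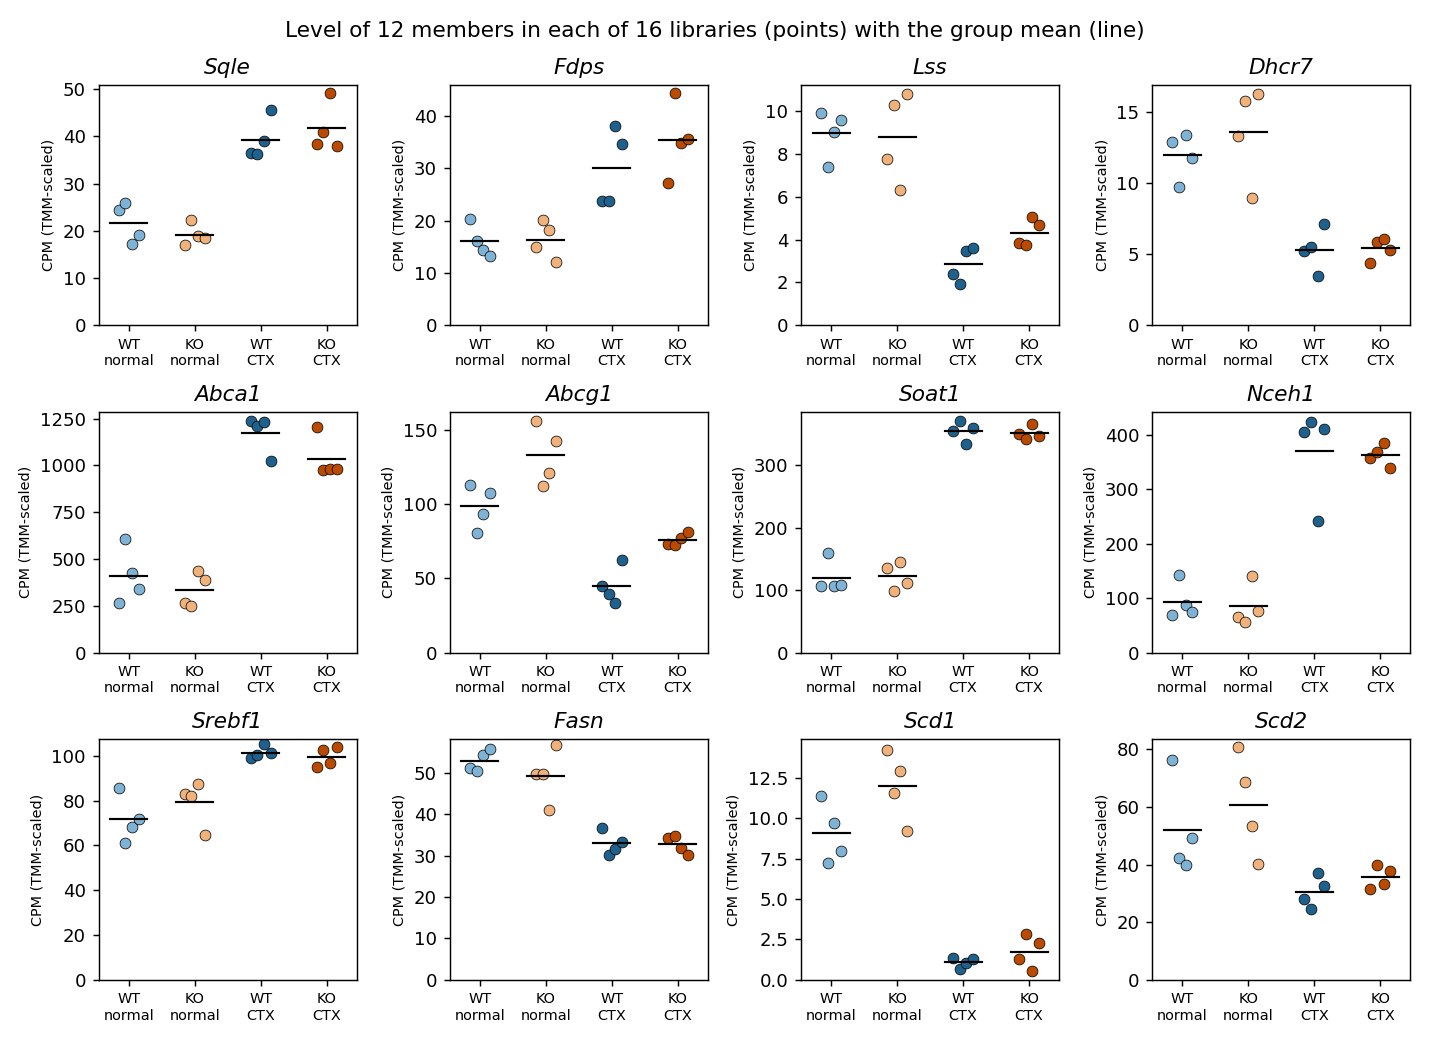
CPM (TMM-scaled, linear axes from 0) of 12 members in each of the 16 libraries, with 1 panel per gene; points are libraries and lines the means of 4. In Sqle, Fdps, Srebf1, Soat1, Nceh1 and Abca1 all 8 CTX libraries lie above all 8 normal libraries. In Lss, Dhcr7, Scd1 and Fasn all 8 lie below.

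The 18 sterol synthesis genes split 3 higher, 6 lower and 9 not passing in WT, beside 33.3% of all genes called higher and 39.4% lower. Their median log2 change was -0.30, beside -0.15 over all genes. The enzymes called higher belong to the stretch from mevalonate to squalene epoxide. Sqle (squalene epoxidase, a rate-limiting step; chr15:59315077-59331192) read 24.3, 26.0, 17.2 and 19.1 CPM in WT normal libraries 2, 3, 5 and 6, and 36.4, 36.2, 38.9 and 45.5 CPM in WT CTX libraries 1 to 4. The groups did not overlap, and the log2 change was 0.86 ± 0.14 (SE, n = 4 per group; edgeR adjusted p = 4.16e-05). Fdps (farnesyl diphosphate synthase; chr3:89093588-89101959) went from 20.4, 16.2, 14.3 and 13.3 CPM to 23.8, 23.7, 37.9 and 34.7 CPM. The CTX libraries again all lay above the normal ones, with a log2 change of 0.90 ± 0.20 (edgeR adjusted p = 8.06e-04). Fdps shares 26.2% of its 50-base words with other genes, mostly the overlapping Gm43738, so its counts are uncertain. With library totals in place of TMM, which moves the median of all genes by -0.62 on the log2 scale, the rises of Sqle (0.24) and Fdps (0.28) no longer passed the test.

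Of the enzymes after squalene epoxide, Lss, Dhcr7 and Sc5d were called lower. Lss (lanosterol synthase, which closes the sterol rings; chr10:76531588-76557138) read 9.89, 7.40, 9.01 and 9.58 CPM in the WT normal libraries and 2.38, 1.95, 3.46 and 3.63 CPM in the WT CTX libraries. Every CTX library was below every normal one, and Lss fell by 1.65 on the log2 scale (SE 0.22; edgeR adjusted p = 6.32e-06), 3.15-fold. The counts behind these values were 172 to 253 reads per normal library and 35 to 66 per CTX library. Dhcr7, the reductase that makes cholesterol from its dehydro precursor (chr7:143823145-143848410), went from 12.9, 9.72, 13.4 and 11.8 CPM to 5.21, 5.52, 3.46 and 7.09 CPM. Its groups did not overlap and it fell by 1.16 (SE 0.22, edgeR adjusted p = 1.72e-04). Lss and Dhcr7 fell under each scaling, but the other scalings moved the median of all genes lower and could not turn a fall. Sc5d, a sterol desaturase of the same stretch, fell by 0.44 (SE 0.12; adjusted p = 0.00417), from 38.7 ± 3.21 to 28.6 ± 4.94 CPM (SD, n = 4). Idi1 (isopentenyl diphosphate isomerase), an early enzyme, fell by 0.46 (SE 0.17; adjusted p = 0.0241), but its groups overlapped, 25.3% of its 50-base words are shared with other genes, and the call was lost when any of 4 libraries (WT normal 2 or 3, WT CTX 1 or 2) was left out, with an adjusted p of 0.0567 to 0.0826.

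**Figure D2:**
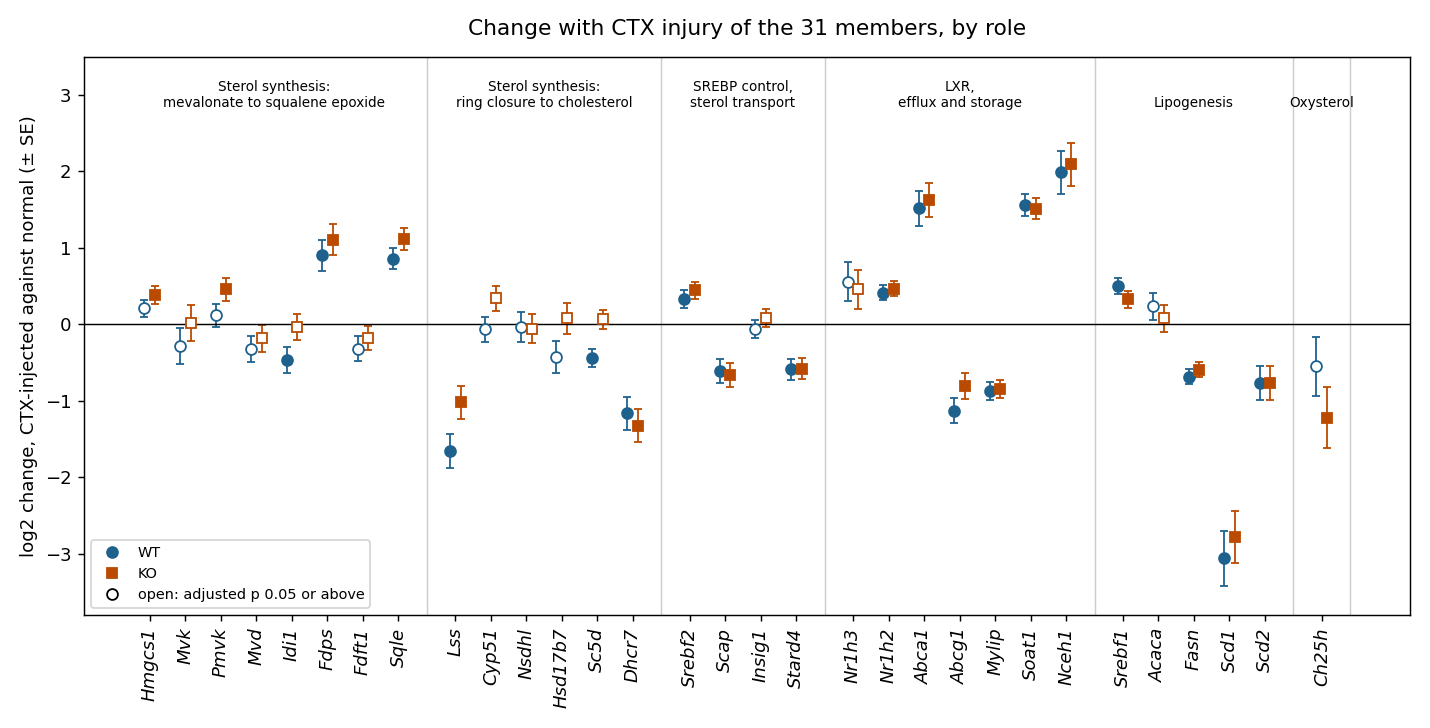
Log2 change with CTX injury of each member (y axis, with SE bars), in WT (circles) and KO (squares), ordered along x by role; filled symbols passed an adjusted p of 0.05. Sqle and Fdps lie above 0 and Lss and Dhcr7 below in both genotypes, though with library totals Sqle and Fdps keep their sign and lose the call in WT; Scd1 lies lowest, at -3.05 in WT and -2.78 in KO.

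Of the controllers and the sterol carrier, Srebf2 was called higher and Scap and Stard4 lower. Srebf2, the transcription factor gene, went from 196 ± 8.56 to 247 ± 30.0 CPM (SD, n = 4), a log2 change of 0.33 ± 0.11 (adjusted p = 0.0157) that turned to -0.29 with library totals and lost its call without WT CTX library 3 (0.25, adjusted p = 0.0614). Scap, the escort, fell by 0.61 (SE 0.16; adjusted p = 0.00241), from 52.0 ± 7.40 to 34.2 ± 3.46 CPM, and 9.96% of its 50-base words are shared, all with 5830462I19Rik. Stard4, a sterol carrier protein, fell by 0.59 (SE 0.14; adjusted p = 0.00132), from 13.5 ± 1.71 to 9.01 ± 1.28 CPM. Both kept their direction under each scaling, but the other scalings moved the median of all genes lower and could not turn a fall. Insig1, itself an SREBP2 target, stood at 104 ± 7.59 CPM before and 100.2 ± 11.8 CPM after, with a log2 change of -0.05 (adjusted p = 0.684).

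The remaining sterol enzymes did not pass in WT. Hmgcs1, which feeds the mevalonate pathway, had a log2 change of 0.21, Pmvk (phosphomevalonate kinase) of 0.12, Mvk (mevalonate kinase) of -0.28, Fdft1 (squalene synthase) of -0.31, Cyp51 (lanosterol demethylase) of -0.07, Nsdhl (a sterol dehydrogenase) of -0.03 and Hsd17b7 (a sterol ketoreductase) of -0.43. Mvd, the mevalonate diphosphate decarboxylase, was the only member whose groups did not overlap in WT without a call: it went from 22.0 ± 4.54 to 17.6 ± 0.0951 CPM, a log2 change of -0.32 (adjusted p = 0.108). Fdft1 overlaps Ctsb over 18.3% of its exon length and shares 26.5% of its 50-base words with other genes, and Hmgcs1 shares 11.6%, mostly with Gm48342, so that their counts are uncertain too.

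The LXR and storage genes split 4 higher, 2 lower and 1 not passing in WT, beside 33.3% of all genes called higher and 39.4% lower. Their median log2 change was 0.56, beside -0.15 over all genes. Of the 7, 6 had groups that did not overlap, beside 65.5% of all genes. RNA of both enzymes of the ester store rose. Soat1, which esterifies cholesterol for lipid droplets (chr1:156424525-156474331), read 106, 159, 107 and 108 CPM in WT normal libraries 2, 3, 5 and 6 and 355, 372, 334 and 359.6 CPM in WT CTX libraries 1 to 4. It rose by 1.56 ± 0.14 on the log2 scale (edgeR adjusted p = 1.00e-07), 2.96-fold. Nceh1, the hydrolase that frees cholesterol from those esters (chr3:27182965-27284608), went from 69.0, 143, 86.7 and 74.5 CPM to 405, 423, 242 and 409.9 CPM. It rose by 1.99 ± 0.28 (adjusted p = 1.02e-05), 3.97-fold, so the esterifying enzyme and the hydrolase rose in the same libraries.

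The exporters parted. Abca1, which loads lipid-poor apolipoproteins (chr4:53030787-53159895), is given in every library although Abcg1 had a smaller p, a choice made after its values were seen: it read 266, 609, 426 and 342 CPM in the WT normal libraries and 1235, 1211, 1232 and 1022 CPM in the WT CTX libraries. It rose by 1.52 ± 0.22 (adjusted p = 1.72e-05), 2.86-fold, and without WT normal library 3 by 1.76. Abcg1, which passes cholesterol to mature lipoprotein particles (chr17:31057675-31117988), went from 113, 80.4, 93.4 and 107 CPM to 45.0, 39.3, 33.4 and 62.6 CPM. Abcg1 fell by 1.13 (SE 0.17; adjusted p = 1.69e-05), with no overlap, 2.18-fold. Mylip, the ligase that marks lipoprotein receptors for degradation (chr13:45389742-45412022), went from 82.4, 104, 119 and 97.1 CPM to 53.0, 47.8, 62.6 and 56.6 CPM and fell by 0.87 (SE 0.12; adjusted p = 8.83e-06). So of the classical LXR targets among these 7 genes, 1 exporter rose while the other and Mylip fell. The rise of Abca1 held under every scaling. The other scalings moved the median of all genes lower with injury, so they could not turn the falls.

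Of the receptors, Nr1h2 was called higher and Nr1h3 did not pass. Nr1h2 (LXR beta) went from 99.97 ± 4.69 to 133 ± 6.67 CPM, a log2 change of 0.42 ± 0.09 (adjusted p = 9.02e-04) that turned to -0.20 with library totals. Nr1h3 (LXR alpha) stood at 32.0 ± 11.2 and 47.2 ± 10.5 CPM, with overlapping groups and a log2 change of 0.56 ± 0.25 (adjusted p = 0.0579). The normal libraries numbered 3 were the highest of their group for Abca1, Soat1 and Nceh1 in WT and in KO. With both left out, a setting chosen after seeing the data, these 3 genes were still called higher and the counts of calls in the LXR subgroup stayed at 4 higher and 2 lower.

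Lipogenesis split 1 higher, 3 lower and 1 not passing in WT, beside 33.3% of all genes called higher and 39.4% lower. The median log2 change was -0.68, beside -0.15 over all genes. Srebf1, the gene of the lipogenic transcription factor (chr11:60199089-60222581), read 85.6, 61.0, 68.2 and 71.6 CPM in the WT normal libraries and 99.0, 100.4, 105 and 101 CPM in the WT CTX libraries, a log2 change of 0.50 ± 0.11 (adjusted p = 5.40e-04) that turned to -0.12 with library totals. Fasn, the fatty acid synthase (chr11:120805846-120824547), went from 51.1, 50.5, 54.4 and 55.8 CPM to 36.8, 30.2, 31.6 and 33.2 CPM and fell by 0.68 (SE 0.10; adjusted p = 1.41e-05). Thus the factor and the enzyme that it is known to drive lay on opposite sides of 0 after TMM scaling and on the same side with library totals.

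Scd1 and Scd2 are the desaturases that make monounsaturated fatty acids. Scd1 (chr19:44394455-44407879) read 11.4, 7.27, 9.72 and 7.98 CPM in the WT normal libraries and 1.36, 0.669, 1.06 and 1.26 CPM in the WT CTX libraries, which rest on 12 to 24 reads each. It fell by 3.05 (SE 0.36; adjusted p = 1.59e-06), 8.31-fold, the largest change among the 31 members in WT. Scd2 (chr19:44293674-44306864) went from 76.2, 42.2, 39.9 and 49.2 CPM to 28.1, 24.5, 37.0 and 32.5 CPM and fell by 0.77 (SE 0.22; adjusted p = 0.00524). Of their 50-base words 4.56% and 3.97% are shared with other genes, mostly with Scd3 and with each other. Scd1 is abundant in fat cells, and 9 of the 10 adipocyte markers (Adipoq, Plin1, Cfd and others) stayed at or below 0.937 CPM in every library. The tenth, Lipe, stood at 20.9 to 29.4 CPM in the normal libraries and 10.9 to 17.6 CPM in the CTX libraries. Summed without Lipe, these markers reached 0.391 to 1.81 CPM in the normal and 0.112 to 0.550 CPM in the CTX libraries; their part in the fall of Scd1 was not tested.

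Acaca, the acetyl-CoA carboxylase that makes malonyl-CoA (chr11:84129672-84401651), read 7.58, 9.21, 8.16 and 9.37 CPM before and 12.6, 8.75, 10.7 and 8.41 CPM after in WT, with overlapping groups and a log2 change of 0.24 ± 0.17 (adjusted p = 0.230). It shares 30.4% of its 50-base words, nearly all with Gm5182, so its level is uncertain. Ch25h (chr19:34473778-34475164) read 6.99, 12.1, 8.16 and 6.16 CPM before and 3.74, 2.84, 11.2 and 5.17 CPM after in WT, with a log2 change of -0.55 ± 0.39 (adjusted p = 0.213). WT CTX library 3 held most of that spread: without it the log2 change was -1.09 (adjusted p = 0.0118).

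In KO the same comparison gave 10 members higher and 10 lower, beside 33.3% and 40.2% of all genes (73.6% in either direction), and the groups did not overlap for 19 of 31 members, beside 66.8% of all genes. The sterol synthesis genes split 5 higher and 4 lower (median log2 change 0.04, all genes -0.16), the LXR genes 4 higher and 2 lower (median 0.47) and the lipogenesis genes 1 higher and 3 lower (median -0.59). Sqle read 16.9, 22.3, 18.9 and 18.5 CPM in KO normal libraries 1, 2, 3 and 5 and 38.4, 41.0, 49.2 and 37.9 CPM in KO CTX libraries 1 to 4, a log2 change of 1.12 ± 0.14 (adjusted p = 2.86e-06). Fdps went from 15.02, 20.1, 18.3 and 12.2 CPM to 27.2, 44.3, 34.7 and 35.5 CPM, a log2 change of 1.11 ± 0.20 (adjusted p = 1.27e-04). In KO both rises passed the test with library totals as well, at 0.50 each.

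Lss went from 7.74, 10.3, 6.32 and 10.8 CPM to 3.86, 3.74, 5.03 and 4.68 CPM in KO and fell by 1.02 (SE 0.21; adjusted p = 4.85e-04). Dhcr7 went from 13.3, 15.7, 8.96 and 16.2 CPM to 4.38, 5.89, 6.10 and 5.30 CPM and fell by 1.32 (SE 0.22; adjusted p = 4.82e-05). Neither gene had overlapping groups in KO. Scap fell by 0.66 and Stard4 by 0.58, close to their WT values. Srebf2 (log2 change 0.44), Hmgcs1 (0.38) and Pmvk (0.46) were called higher in KO, and all 3 turned negative with library totals (-0.16, -0.23 and -0.15). Sc5d and Idi1, called lower in WT, had log2 changes of 0.07 and -0.03 in KO and did not pass there; the tests of these differences are given below with the interaction.

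Soat1 in KO went from 136, 98.6, 145 and 112 CPM to 351, 342, 367 and 347 CPM, a rise of 1.52 ± 0.14 (adjusted p = 1.41e-07). Nceh1 went from 65.9, 56.9, 140.5 and 75.5 CPM to 357, 369, 384 and 339.5 CPM, a rise of 2.097 ± 0.28 (adjusted p = 6.02e-06). Abca1 went from 267, 249.2, 434 and 389 CPM to 1205, 976, 979 and 979 CPM, a rise of 1.63 ± 0.22 (adjusted p = 8.48e-06). All 3 sets of groups stood apart, as in WT. Abcg1 went from 156, 112, 121 and 142 CPM to 72.9, 72.5, 77.4 and 81.3 CPM and fell by 0.81 (SE 0.16; adjusted p = 3.69e-04). Mylip went from 92.6, 86.1, 104 and 107 CPM to 53.8, 47.4, 60.3 and 55.1 CPM and fell by 0.85 (SE 0.12; adjusted p = 1.18e-05). Nr1h2 rose by 0.47 (SE 0.09; adjusted p = 3.16e-04), which turned to -0.14 with library totals, and Nr1h3 had a log2 change of 0.46 that did not pass (adjusted p = 0.112).

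Among the lipogenesis genes in KO, Scd1 went from 14.2, 11.6, 12.9 and 9.25 CPM to 1.27, 2.83, 0.559 and 2.29 CPM and fell by 2.78 (SE 0.34; adjusted p = 2.52e-06). Fasn went from 49.8, 49.7, 40.9 and 56.8 CPM to 34.2, 34.9, 31.8 and 30.2 CPM and fell by 0.59 (SE 0.10; adjusted p = 6.15e-05). Scd2 went from 80.7, 68.7, 53.3 and 40.1 CPM to 31.4, 40.0, 33.4 and 37.9 CPM and fell by 0.77 (SE 0.22; adjusted p = 0.00492). The groups of all 3 stood apart, narrowly so for Scd2, whose lowest normal library (40.1 CPM) lay beside its highest CTX library (40.0 CPM). Srebf1 went from 83.0, 82.0, 87.5 and 64.6 CPM to 95.1, 102, 96.8 and 104 CPM, a log2 change of 0.33 ± 0.11 (adjusted p = 0.0112) that turned to -0.28 with library totals and lost its call without KO normal library 5 (0.23, adjusted p = 0.0564) or with the replicate number as a block (0.26, adjusted p = 0.0506). Acaca, at 7.53, 7.87, 6.44 and 10.05 CPM and then 7.78, 8.77, 6.82 and 10.3 CPM, did not pass (log2 change 0.08, adjusted p = 0.684). Ch25h went from 4.98, 7.24, 10.5 and 11.3 CPM to 2.59, 3.51, 5.71 and 2.753 CPM and was called lower (log2 change -1.22 ± 0.40, adjusted p = 0.0114), although its groups overlapped and an exact two-sided permutation test of CPM gave p = 0.0571.

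Set side by side, the 3 subgroups differed in their counts and medians in WT and KO alike. The LXR subgroup had the highest median and the lipogenesis subgroup the lowest, both in WT (0.56 and -0.68) and in KO (0.47 and -0.59), with the sterol subgroup between them (-0.30 and 0.04). Over all genes the median was -0.15 in WT and -0.16 in KO. The LXR median was the value of a receptor gene, Nr1h3 in WT, which did not pass, and Nr1h2 in KO. Abcg1 and Mylip fell in both genotypes, so this median does not describe the LXR subgroup as a whole. With library totals the medians were -0.07, -0.92 and -1.30 in WT for LXR, sterol synthesis and lipogenesis, beside -0.77 over all genes. That setting moves all genes by nearly the same amount, so it could not change the order of the subgroups. The counts of calls did move with the scaling. Of the 18 sterol genes, with library totals 0 were called higher and 16 lower in WT, beside 14.2% and 61.2% of all genes. In KO 2 were called higher and 12 lower, beside 14.1% and 61.5% of all genes. With the male libraries alone, 2 sterol genes were called higher and 6 lower, 4 LXR genes higher and 2 lower, and 1 lipogenesis gene higher and 3 lower in WT, beside 29.7% of all genes higher and 35.2% lower. In KO the same counts were 5 and 4, 4 and 2, and 0 and 3, beside 32.2% and 39% of all genes. Across all genes, with library totals, the share of calls that were higher fell from 45.8% to 18.9% in WT and from 45.3% to 18.6% in KO. The members that kept their direction and their call under every scaling, in WT and in KO, were Abca1, Soat1 and Nceh1 (higher) and Lss, Dhcr7, Scap, Stard4, Abcg1, Mylip, Fasn, Scd1 and Scd2 (lower). For the members that fell this was no test of direction, since both other scalings moved the median of all genes lower.

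**Figure D3:**
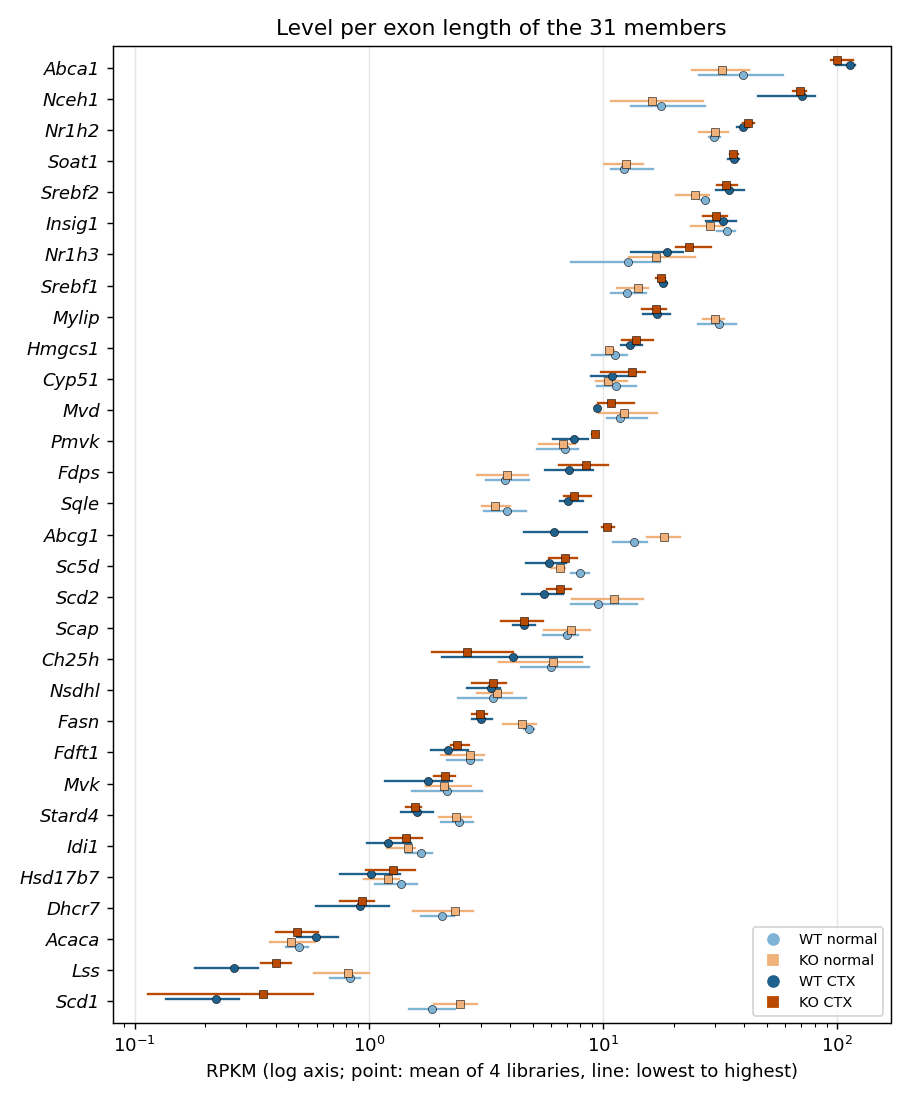
Mean RPKM per group (log axis) of the 31 members, with lines from the lowest to the highest of 4 libraries, sorted by the level in WT CTX. Abca1 heads the order in each group by union exon length, and Scd1 is lowest in both CTX groups.

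Levels of different genes were compared per length, as RPKM (TMM-scaled CPM per kilobase of exon) over the union of exons. In WT normal muscle Abca1 was highest, at 39.6 ± 14.2 RPKM (SD, n = 4), followed by Insig1 at 33.7 ± 2.45, Mylip at 31.1 ± 4.76, Nr1h2 at 29.8 ± 1.40 and Srebf2 at 27.3 ± 1.19 RPKM. The spread of Abca1 covers these neighbours, and by the length of the longest transcript Nr1h2 came first, at 50.01 RPKM against 40.0 for Abca1. After injury in WT the order opened: Abca1 stood at 113 ± 9.88 RPKM, Nceh1 at 70.4 ± 16.3, Nr1h2 at 39.8 ± 1.99, Soat1 at 36.3 ± 1.63 and Srebf2 at 34.3 ± 4.18 RPKM. By union exon length Abca1 and Nceh1 differed there from the genes below them by more than their spread, and Soat1 and Srebf2 did not differ by more than theirs. By the longest transcript, Nceh1 in WT CTX (82.6 ± 19.2 RPKM) differed from Nr1h2 (66.7 ± 3.34 RPKM) by less than its spread. In KO the first 5 were the same genes, led by Abca1 at 99.9 ± 10.98 and Nceh1 at 69.0 ± 3.59 RPKM. At the foot stood Acaca in normal muscle (0.502 ± 0.05004 RPKM in WT) and Scd1 after injury (0.223 ± 0.0626 in WT and 0.355 ± 0.208 in KO), with Lss next to it in the CTX groups (0.265 ± 0.0757 in WT and 0.401 ± 0.0584 in KO).

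KO against WT asks whether loss of Glud1 changes these genes. No member was called in normal muscle, where the rule called 0% of all genes, and none in CTX-injected muscle, where it called 0.00733% of all genes, which is 1 gene. At an unadjusted p under 0.05 edgeR gave 2 of the 31 members in each tissue, beside 2.86% of all genes in normal and 6.67% in CTX-injected muscle. DESeq2 gave 2 members at that unadjusted level in each tissue, beside 3.34% and 7.43% of all genes, and limma voom 7 and 8, beside 16.2% and 13.7% of all genes. Groups did not overlap for 1 member in normal muscle (all genes 1.08%) and for 3 in CTX-injected muscle (all genes 5.7%).

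**Figure D4:**
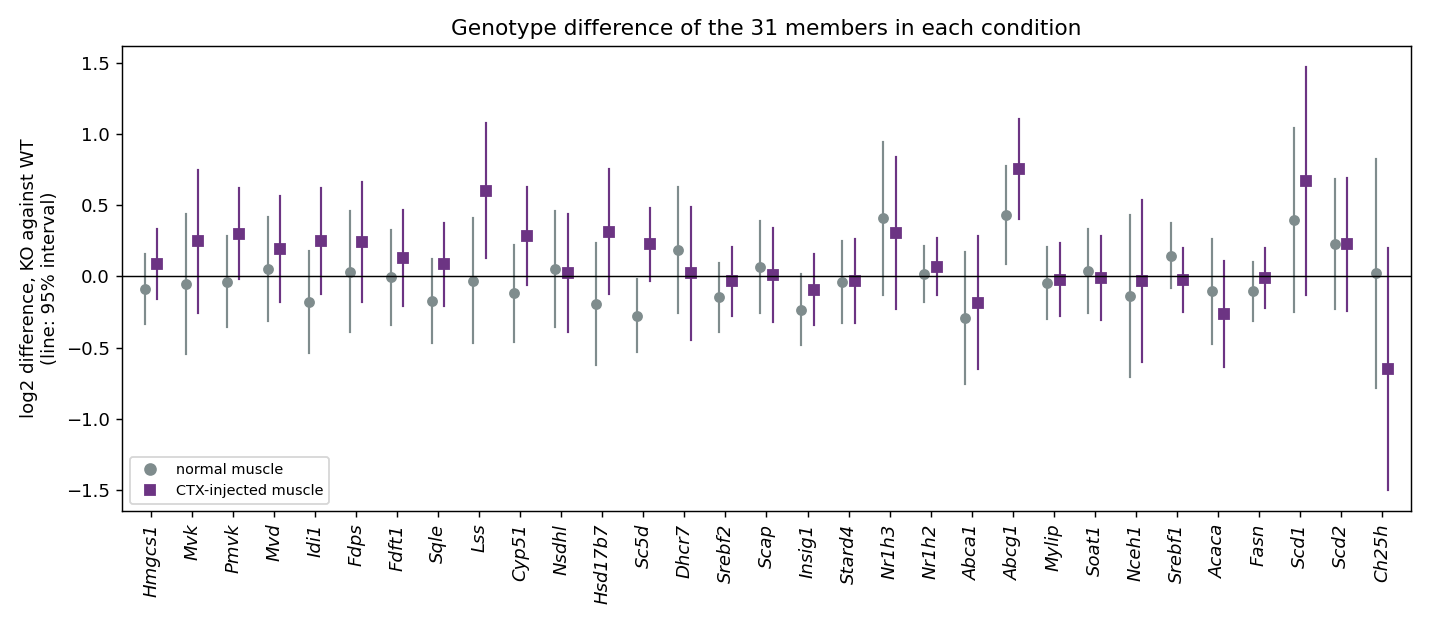
Log2 difference of KO against WT (y axis; lines are 95% intervals) for each member along x, in normal muscle (circles) and CTX-injected muscle (squares). Most intervals span 0, and Abcg1 lies above 0 in both tissues, at 0.43 and 0.75, with no member past an adjusted p of 0.05 in edgeR.

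Abcg1 was the member of smallest p in both tissues. In normal muscle WT libraries 2, 3, 5 and 6 read 113, 80.4, 93.4 and 107 CPM and KO libraries 1, 2, 3 and 5 read 156, 112, 121 and 142 CPM. KO was higher on average with a small overlap (log2 difference 0.43, 95% interval 0.09 to 0.78; edgeR adjusted p = 0.991; exact two-sided permutation p = 0.0571). In CTX-injected muscle WT read 45.0, 39.3, 33.4 and 62.6 CPM and KO 72.9, 72.5, 77.4 and 81.3 CPM. All 4 KO libraries lay above all 4 WT libraries (log2 difference 0.75, 95% interval 0.40 to 1.10; edgeR adjusted p = 0.224; exact permutation p = 0.0286, the smallest that 4 against 4 libraries can give). DESeq2 called Abcg1 in CTX-injected muscle (log2 difference 0.76, adjusted p = 0.00756) and so did limma voom (0.79, adjusted p = 0.0173), while the adjusted p over the other settings of edgeR ran from 0.0560 (without WT CTX library 4) to 0.524 (without WT CTX library 1). The sums of the 5 dendritic cell markers were 137 to 206 CPM in WT and 203 to 442 CPM in KO normal muscle, and 71.9 to 96.8 CPM in WT and 50.9 to 81.9 CPM in KO CTX-injected muscle. In CTX-injected muscle the sums of the 5 T and NK cell genes were 0.93 to 3.12 CPM in WT and 3.75 to 5.61 CPM in KO, those of the 4 neutrophil genes 82.9 to 250.3 and 140.5 to 688 CPM, and those of the 6 fibroblast genes 76.0 to 99.9 and 54.3 to 68.8 CPM. The part of these markers in the Abcg1 values was not tested.

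The next smallest p in normal muscle belonged to Sc5d and Insig1. Sc5d read 35.4, 42.5, 36.6 and 40.1 CPM in WT and 29.3, 31.7, 33.4 and 33.4 CPM in KO, with no overlap (log2 difference -0.27, 95% interval -0.53 to -0.02; edgeR adjusted p = 0.991; exact permutation p = 0.0286). Insig1 read 94.8, 107, 113 and 102 CPM in WT and 82.1, 73.3, 97.7 and 101 CPM in KO, with overlap (log2 difference -0.23, 95% interval -0.48 to 0.02; adjusted p = 0.991). Neither passed the test over all genes. In CTX-injected muscle the next were Lss, at 2.38, 1.95, 3.46 and 3.63 CPM in WT and 3.86, 3.74, 5.03 and 4.68 CPM in KO (log2 difference 0.60, 95% interval 0.13 to 1.08; edgeR adjusted p = 0.625), and Pmvk, at 10.4, 11.9, 14.8 and 14.2 CPM in WT and 15.5, 16.2, 15.4 and 16.1 CPM in KO (log2 difference 0.30, 95% interval -0.02 to 0.62; adjusted p = 0.780). In both, every KO library was above every WT library without a call, with an exact permutation p of 0.0286 each.

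By subgroup, the median log2 difference in normal muscle was -0.04 for sterol synthesis, 0.02 for LXR and storage and 0.15 for lipogenesis, beside 0.00382 over all genes. In CTX-injected muscle it was 0.16, -0.01 and -0.01, beside -0.02 over all genes, and 15 of the 18 sterol genes had a positive difference there against 5 of 18 in normal muscle. These genes are not independent of each other and no test was made of the counts. Intervals show what could have been missed: for Abca1 in CTX-injected muscle the 95% interval ran from -0.65 to 0.28, for Soat1 from -0.31 to 0.28, for Fasn from -0.22 to 0.20 and for Scd1, at its low level, from -0.13 to 1.47.

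The interaction asks whether the change with injury differed between KO and WT. No member and 0% of all genes were called by edgeR, and 1 member passed an unadjusted p of 0.05, beside 4.73% of all genes; DESeq2 gave 2 members at that level, beside 5.40% of all genes, and voom 3, beside 11.8%, and neither called a member. Sc5d had the smallest p, with the values just given for normal muscle and 26.3, 22.9, 31.6 and 33.7 CPM in WT CTX and 32.1, 37.5, 35.6 and 28.6 CPM in KO CTX. It was lower in KO than WT before injury and higher on average after it (interaction 0.50, 95% interval 0.14 to 0.86; edgeR adjusted p = 0.728). Lss, with its CTX values given above and 9.89, 7.40, 9.01 and 9.58 CPM in WT normal and 7.74, 10.3, 6.32 and 10.8 CPM in KO normal libraries, followed (0.63, 95% interval -0.01 to 1.28) and then Cyp51 (0.41, 95% interval -0.08 to 0.89). Cyp51 read 52.0, 61.3, 41.7 and 46.2 CPM in WT normal, 42.3, 41.4, 55.9 and 45.8 in KO normal, 39.3, 43.5, 60.2 and 49.4 in WT CTX and 43.3, 66.5, 60.6 and 64.1 CPM in KO CTX libraries, so its groups overlapped throughout. For Idi1, called lower with injury in WT and not in KO, the interaction was 0.43 (95% interval -0.09 to 0.95), so the difference between genotypes was not shown.

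Other genes of the same pathways, from lists that leave the 31 members out, moved as follows with injury. Of 14 tested genes of sterol synthesis and SREBP processing, 6 rose and 3 fell in WT and 8 rose and 2 fell in KO, beside 33.3% of all genes higher in each genotype and 39.4% (WT) and 40.2% (KO) lower; calls are common over all genes, and nothing particular to these lists is read from their counts. Sec23a, a coat protein of the vesicles in which Scap travels, rose by 1.05 in WT and 1.02 in KO; Msmo1, a sterol methyl oxidase, rose by 0.91 and 1.11; and Ebp, a sterol isomerase, rose by 0.69 and 0.71. Msmo1 and Ebp act after lanosterol. After TMM scaling, the stretch downstream of squalene epoxide thus held genes that rose as well as Lss and Dhcr7, which fell. The size of the rises of Msmo1 and Ebp depends on the scaling. Library totals moved the median of all genes by -0.62 in WT and -0.61 in KO. Of 16 genes of cholesterol handling, 7 rose and 7 fell in each genotype. Cyp27a1, a mitochondrial sterol hydroxylase that makes an LXR ligand, fell by 4.31 in WT (185.6 ± 32.2 to 9.34 ± 2.38 CPM) and by 4.15 in KO. Pltp, a phospholipid transfer protein and LXR target, fell by 3.84 in WT and 3.14 in KO, and Rxra, a partner receptor of LXR, fell by 1.40 and 1.47. Of 18 other lipogenesis genes, 4 rose and 9 fell in WT and 5 rose and 8 fell in KO. Lpin1, a phosphatidate phosphatase, fell by 2.68 in WT and 2.42 in KO, Fads1, a fatty acid desaturase, by 1.96 and 1.88, and Hsd17b12, a ketoreductase of fatty acid elongation, rose by 1.55 and 1.68. None of these 48 genes was called between genotypes or in the interaction.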

How the data were processed

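The authors deposited raw read counts, in whole numbers for each symbol, of 16 libraries made with SMART-Seq V4, per the labels' protocols. Per the submitters' processing notes, reads were handled with cutadapt 1.18, FastQC 0.11.7, HISAT2 2.1.0 and Subread 1.6.2 (featureCounts), with mm10 as the build; the annotation, read length and handling of multi-mapped reads are not given in the sources used here, and no strand was kept. Each column was matched to a sample by its name.

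Counts of 13649 genes kept by filterByExpr were scaled with TMM (factors 1.13 to 1.34 in normal and 0.758 to 0.866 in CTX libraries) and tested with edgeR 4.0.16 in R 4.3.3: glmQLFit, 1 coefficient for each of 4 groups, Benjamini-Hochberg over all genes, threshold 0.05. SE is the log2 change divided by the square root of F. Single genes also had exact two-sided permutation tests of CPM. The method was tested on simulated data. Coordinates, exon lengths, overlaps and shared 50-base words came from GENCODE M21 on GRCm38, the assembly behind mm10. Lss rested on as few as 35 reads and Scd1 on 10. No pair of libraries within a group was a duplicate, and pairs from different groups were not compared. The lowest chi-square per degree of freedom was 6.03, for WT CTX libraries 1 and 2, with 31.8 to 65.5 for the other WT CTX pairs. KO CTX libraries 3 and 4 gave 7.31, with 13.0 to 28.1 for the other KO CTX pairs. Intervals cover the spread between libraries.

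The members and lists were chosen with earlier results of these data known. Library values are given for the 4 members of smallest p in WT injury of the sterol and the LXR subgroups, all lipogenesis members and Ch25h, and, between genotypes, for called members or else the 3 of smallest p; from other lists the 3 of smallest p are named. Same-numbered WT and KO libraries deviated together in normal muscle (r = 0.64, 0.57 and 0.24 across genes for numbers 2, 3 and 5), each over the limit of 0.1 used for a pairing, but so did WT 6 with KO 5 (0.59) and WT 2 with KO 1 (0.47), so that the pairing is a hint from the data and not from the labels; in CTX-injected muscle (r = -0.12, -0.04, -0.06 and 0.00) they did not. Alternatives were RLE factors, library totals, DESeq2 1.42.0, limma 3.58.1 voom with quality weights, 2 other filters (none, and at least 5 CPM in 4 libraries), only the groups compared, each library left out, males alone, a replicate block and, after seeing the data, both normal libraries numbered 3 left out and the block within normal muscle.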

Additional observations from a re-analysis of the deposited data

Results flagged for a closer look

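Within groups of 4, a library was singled out where its gap to the nearest other library was too large a share of the group's range (Dixon's 95% critical value). Of the 124 groups of member values, 7 met this, and chance alone picks about 1 in 20. The values are CPM. Abca1 was low in WT CTX library 4, at 1022 against 1211 to 1235 in the others, and high in KO CTX library 1, at 1205 against 976 to 979. Soat1 was high in WT normal library 3, at 159.3 against 106 to 108. Nceh1 was low in WT CTX library 3, at 241.8 against 405 to 423. Of the sterol genes, Idi1 was low in KO normal library 5 (4.199 against 5.38 to 5.52), Mvd was high in WT normal library 6 (28.74 against 19.3 to 20.4), and Nsdhl was low in WT CTX library 1 (7.477 against 9.90 to 10.4). The called rises of Abca1, Soat1 and Nceh1 with injury passed the test with each of these libraries left out. Mvd was also highest of its group in KO normal library 5, at 31.7 against 17.9 to 22.0 CPM, short of the critical value. That library and WT normal library 6 held the most Malat1, at 7304 and 6966 CPM. The other libraries held 745 to 2567 CPM of Malat1. Whether this bears on the Mvd values was not tested.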

How the results depend on the processing

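With library totals in place of TMM, the median change with injury of all genes moved by -0.62 (WT) and -0.61 (KO). In WT all genes called were 1944 higher and 8349 lower, sterol genes 0 higher and 16 lower, and lipogenesis genes 0 higher; the log2 change turned for Hmgcs1 (-0.41), Pmvk (-0.49), Srebf2 (-0.29), Nr1h3 (-0.073), Nr1h2 (-0.20), Srebf1 (-0.12) and Acaca (-0.38). In KO the counts were 1920 higher and 8398 lower, sterol 2 and 12, lipogenesis 0 higher; it turned for Hmgcs1 (-0.23), Insig1 (-0.52), Mvk (-0.60), Pmvk (-0.15), Cyp51 (-0.26), Sc5d (-0.54), Hsd17b7 (-0.54), Srebf2 (-0.16), Nr1h3 (-0.17), Nr1h2 (-0.14), Srebf1 (-0.28) and Acaca (-0.53). The share of higher calls moved by more than 10 percentage points, as given above. The filter at 5 CPM turned Pmvk in WT (-0.048) and, in KO, Insig1 (-0.090), Mvk (-0.16), Sc5d (-0.11), Hsd17b7 (-0.093) and Acaca (-0.094), and left 3 sterol genes and 0 lipogenesis genes higher in KO. No filter turned Nsdhl in WT (0.0024) and Idi1 in KO (0.012). Mvk in KO, near 0, also turned with RLE factors (-0.012), DESeq2 (-0.013), voom (-0.037), only the groups compared (-0.013), males alone (-0.038), the replicate block (-0.028) and without both normal libraries numbered 3 (-0.0033); the last turned Cyp51 in WT (0.036). Hsd17b7 in KO turned with voom (-0.052) and males alone (-0.030), and Mvd in KO with males alone (0.0030).

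Between genotypes in CTX-injected muscle, DESeq2 called 17 genes higher and 26 lower and voom 66 and 46, with 1 LXR member (Abcg1) higher in each; the interaction gave 9 and 39 in DESeq2 and 2 and 9 in voom. Only the groups compared gave 2 genes lower. Males alone gave 1 lower in CTX-injected muscle, 1 lower in the interaction and 0 lipogenesis genes higher in KO injury. Leaving out single libraries gave ranges of -0.17 to 0.16 (Nsdhl), -0.19 to 0.036 (Cyp51) and -0.12 to 0.019 (Insig1) in WT injury, and -0.13 to 0.037 (Idi1), -0.053 to 0.18 (Mvk), -0.15 to 0.037 (Nsdhl), -0.30 to 0.0011 (Mvd), -0.034 to 0.19 (Hsd17b7) and -0.030 to 0.19 (Acaca) in KO injury, with 0 to 1 lipogenesis genes higher in KO, 0 to 1 genes lower in CTX-injected muscle, and 0 to 1 higher and 0 to 2 lower in the interaction. The replicate block, which is void as a pairing in CTX-injected muscle where numbers are only shared, turned Insig1 in WT (0.10) and Hsd17b7 in KO (-0.0094), left 0 lipogenesis genes higher in KO (Srebf1 lost) and 1 gene lower in CTX-injected muscle; within normal muscle alone it called no gene, and it changed no other count of members. The cause of these changes was not tested. All other results kept direction and side of the threshold, except 34 that gained and 20 that lost the threshold for single genes. Depth limits Scd1, Lss and Ch25h most.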

Other observations

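Further genes of the lists that split 7 higher and 7 lower (cholesterol handling) and 4 higher and 9 lower (lipogenesis) in WT are given with their values. Plin2, which coats lipid droplets, rose from 539.7 ± 146 to 2017 ± 232 CPM in WT (SD, n = 4; log2 change 1.90, edgeR adjusted p = 1.50e-06) and from 461 ± 161 to 2156 ± 88.1 CPM in KO (2.22). Dgat2, which makes triglyceride, rose by 1.15 in WT and 0.86 in KO. The lysosomal pair Npc2, which binds cholesterol, and Lipa, which hydrolyses esters, rose by 0.78 and 0.79 in WT and by 1.07 and 0.99 in KO. Gramd1b, a carrier that moves cholesterol from the plasma membrane, rose by 1.45 and 1.25. In the opposite direction, Acss2, which makes acetyl-CoA from acetate, fell by 1.601 in WT and 0.78 in KO, and Fads2 fell by 3.15 and 1.93 from low levels. These genes were picked from their lists after their values were seen. Their values under the other scalings were not examined. Library totals moved the median of all genes by -0.62 in WT and -0.61 in KO.

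A contrast added after seeing the data averaged the genotype difference over both tissues. Abcg1 was 0.59 higher in KO on the log2 scale (SE 0.12), rank 2 by p among the 13649 genes tested, with an edgeR adjusted p of 0.607 and 0 genes called. In CTX-injected muscle Acss2 and Fads2 had genotype differences of 0.68 and 1.19 that did not pass (adjusted p = 0.538 and 0.566), and in the interaction 0.82 and 1.22 (adjusted p = 0.847 and 0.953).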
